A study of Mus musculus with 6 samples.

Results

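EYFP labelled and unlabelled non-acinar cells of the untreated mouse pancreas were compared within 6 cell classes: duct, endothelial, B, T or NK, myeloid and fibroblast. The cells came from untreated R26[CA]30EYFP mice, whose background was C57Bl/6J. They were sorted into EYFP positive and EYFP negative fractions, and single cells were sequenced in droplets. Run 1 and run 2 each gave 1 library of each fraction, so 2 EYFP positive libraries stood against 2 EYFP negative libraries. All 4 libraries carry the same reporter allele, and the fractions differ by the sort on its fluorescence. A barcode was kept with at least 200 detected genes and at most 20% mitochondrially encoded UMIs, a UMI being 1 counted transcript molecule. It entered a class when at least 3 of the 12 markers of that class were detected, and at least 2 more than of any other class. The 6 classes held 2914 barcodes, against 3225 kept in the 4 homeostasis libraries and 8582 deposited in the 6 libraries of the series. By library, 398 and 1605 lay in EYFP negative runs 1 and 2 and 765 and 146 in EYFP positive runs 1 and 2. Nothing in the labels ties a library to its own animal, and the p-values therefore rest on library spread that may be technical.

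In the R26[CA]30EYFP allele, the EYFP sequence at the Rosa26 locus is kept out of frame by a run of cytosine-adenine repeats. Slippage of the polymerase in that run during replication can bring EYFP back into frame, after which the cell and its progeny carry the label. Such slips arise at random and are rare because mismatch repair corrects most of them. The pancreas is made up mostly of acinar cells, which secrete digestive enzymes. The classes described here line its ducts and vessels, patrol it as leukocytes or form its connective tissue.

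The 4 libraries held between 1044718 and 8008285 UMIs, and the median kept barcode held 2588 to 5536 UMIs. The fewest barcodes lay in EYFP positive run 2, which held 220 barcodes against 810, 1002 and 2490 in the others, and 187 of its 220 were kept. The counts list no gene named EYFP, so the sort could not be checked against the label's own transcript. Run 1 and run 2 also differed in the sexes present. In run 1 no barcode of any class held Y-linked UMIs without Xist. In run 2 both kinds occurred on both sides of the sort, with 239 Xist-only and 183 Y-only endothelial barcodes in the EYFP negative library and 8 and 7 in the EYFP positive one. In duct cells of run 2 they numbered 68 and 35 against 13 and 17. In B cells they numbered 252 and 26 against 17 and 8, and in T or NK cells 99 and 8 against 9 and 6. Y-only barcodes thus weighed more in the EYFP positive library in these classes. The run block does not remove this, and its part in the gene differences was not tested.

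The 2 libraries of a run shared cell barcodes. Run 1 shared 23 barcodes between its fractions and run 2 shared 71, while pairs of libraries from different runs shared 0 to 2. In run 2, 58 of the shared barcodes were deeper in the EYFP positive library by a median of 11.4-fold, and 13 were deeper in the EYFP negative library by 56.1-fold. In run 1, 8 were deeper in the EYFP positive library by 56.6-fold and 15 in the EYFP negative library by 31.7-fold. The genes of the shallower copy overlapped those of the deeper copy by a median of 89.3% to 95.8%, against 57.0% and 60.1% for other pairs of barcodes of the run. Shallower copies made up 21 of the 147 duct barcodes of EYFP negative run 2, 5 of the 33 B barcodes of EYFP positive run 1 and 5 of the 40 B barcodes of EYFP positive run 2.

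The gated classes carried the markers of their names. The median barcode held 10 or 11 of the 12 duct markers in each library, 10 or 11 endothelial markers, 8 to 10 B markers and 8 or 9 T or NK markers. Myeloid barcodes held a median of 5 to 9.5 and fibroblast barcodes 7 to 11. Krt19, an epithelial keratin, was detected in 68.3% to 87.2% of duct barcodes. Each duct marker was detected least often in EYFP positive run 2. There Epcam was found in 70.7%, Tm4sf4 in 63.4% and Spp1 in 82.9% of duct barcodes. Elsewhere these markers were found in 94.0% to 96.6%, 92.9% to 95.2% and 98.6% to 100%. Lymphatic barcodes were not detected among the endothelial cells of any library. The largest of these libraries held 0 of 830, which allows a share of up to 0.361% of barcodes. Binomial intervals and such limits cover counting error only.

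Duct cells were the class that made up more of the EYFP positive than of the EYFP negative library in both runs. Their share of kept barcodes was 6.39% in EYFP negative run 1 and 8.33% in EYFP negative run 2. It was 14.0% in EYFP positive run 1 and 21.9% in EYFP positive run 2, so the 2 groups of libraries did not overlap. The EYFP positive share was 18.0% ± 5.60 (SD, n = 2) and the EYFP negative share 7.36% ± 1.37 (SD, n = 2), with differences of 7.62 percentage points in run 1 and 13.6 in run 2. A two-sided exact permutation test gave p = 0.333, the smallest that 2 against 2 libraries can give. In EYFP positive run 2, 18 of the 41 duct barcodes held UMIs of an acinar transcription factor (Rbpjl, Ptf1a or Bhlha15) or at least 2% enzyme UMIs, against 7 of 117, 4 of 147 and 2 of 28 elsewhere. Without such barcodes the mean difference was 5.72 points, with 7.24 in run 1 and 4.20 in run 2. Without both copies of the shared barcodes it was 6.75 points.

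The other classes did not shift alike in the 2 runs or shifted within small counts. Endothelial cells made up 35.6% and 68.1% of the EYFP negative and positive libraries in run 1 and 47.0% and 18.2% in run 2. B cells made up 25.1% and 3.95% of the EYFP negative and positive libraries in run 1 and 19.8% and 21.4% in run 2. T or NK cells made up 14.8% and 4.07% in run 1 and 8.39% and 11.8% in run 2. With all barcodes these 3 classes moved in opposite directions in the 2 runs, and the exact permutation test gave p = 1 for endothelial cells and p = 0.667 for B and for T or NK cells. For T or NK cells the direction in run 2 depended on shared barcodes, which were 15 of the 22 in EYFP positive run 2. Of these 22, 0 were the shallower copy, so leaving out both copies removed deeper copies from that library. Without both copies the T or NK difference was -11.1 points in run 1 and -2.61 in run 2 (exact permutation p = 0.333). The B difference in run 2 was -0.313 points without the shallower copies, -0.458 with a stricter gate and 5.34 without both copies. Myeloid shares were 3.20% and 2.89% without the label against 0.719% and 2.14% with it. Fibroblast shares were 5.71% and 4.48% against 0.719% and 2.67%. Both shares were below those of the EYFP negative fraction in each run (exact permutation p = 0.333 each), on 6 and 4 myeloid and 6 and 5 fibroblast barcodes. What the sort and the dissociation let through sets these shares as well, and their part was not tested.

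**Figure D1:**
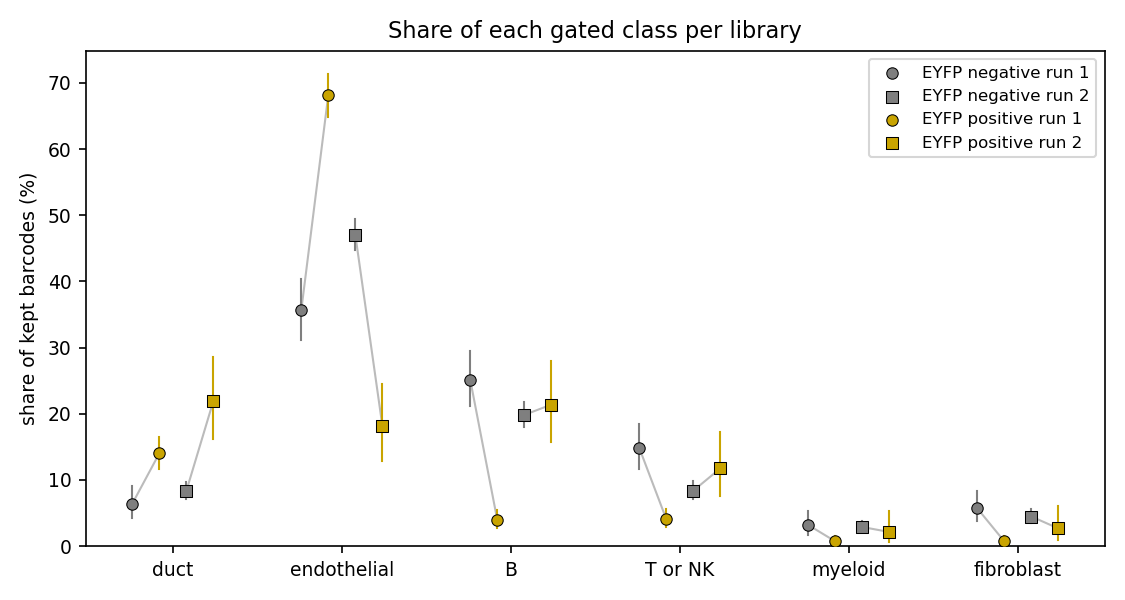
Share of kept barcodes (y axis, %) in each gated class (x axis) for the 4 homeostasis libraries, with exact 95% binomial intervals that cover counting error only. Grey lines join the 2 fractions of a run. Duct shares were higher in both EYFP positive libraries (14.0% and 21.9%) than in both EYFP negative ones (6.39% and 8.33%), and endothelial shares went in opposite directions in the 2 runs.

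Expression was compared on UMI counts summed over the barcodes of a class in each library, with run as a block, and levels are given as CPM, a gene's UMIs scaled to the class sum of its library. A gene was called at a Benjamini-Hochberg adjusted p under 0.05 in edgeR's quasi-likelihood test. Duct, endothelial, B and T or NK cells had at least 10 barcodes in each library and were tested. Same-numbered libraries deviated together, with a correlation of their deviations of 0.321 in duct, 0.176 in endothelial, 0.229 in B and 0.223 in T or NK sums.

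In duct cells 12 genes were higher and 17 lower in the EYFP positive fraction, of 8718 tested. Called genes made up 0.333% of those tested (0.138% higher, 0.195% lower), and 441 genes had an unadjusted p under 0.05. The genes of duct identity were not among them. Krt19 stood at 354 and 513 CPM in EYFP negative runs 1 and 2 and at 353 and 395 CPM in EYFP positive runs 1 and 2 (log2 fold change -0.23 ± 0.23 SE). Sox9, a transcription factor of duct cells, stood at 1013 and 797 CPM against 914 and 562 CPM (-0.35 ± 0.25 SE). Of the 16 genes of duct transport and epithelium, 8 were higher and 8 lower, with a median log2 fold change of 0.01 against -0.02 over all genes, and none was called. Mucous gland markers gated 3 of 28 and 17 of 147 EYFP negative and 26 of 117 and 6 of 41 EYFP positive duct barcodes (10.7%, 11.6%, 22.2% and 14.6%). After thinning to 1000 UMIs per barcode before gating, 0 of 26, 1 of 134, 0 of 114 and 1 of 30 were left.

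The genes called lower in duct cells were led by transcripts of other cells. Igkc (ENSMUSG00000076609), the constant region of the immunoglobulin kappa chain, was at 480 and 279 CPM in EYFP negative runs 1 and 2. In the EYFP positive runs it was at 25.9 and 37.6 CPM, so the groups lay far apart (log2 fold change -3.71 ± 0.29 SE, adjusted p = 8.91e-06). Ighm, the mu heavy chain, was at 68.0 and 60.2 CPM against 5.55 and 7.05 CPM (-3.41 ± 0.45 SE, adjusted p = 0.00169). Hbb-bs, a beta globin of red cells, was at 46.5 and 544 CPM against 6.79 and 79.9 CPM, lower in each run but overlapping between runs (-2.82 ± 0.28 SE, adjusted p = 9.73e-05). Over whole libraries, immunoglobulin genes took 6.99% and 2.78% of UMIs in the EYFP negative runs and 0.883% and 0.418% in the EYFP positive runs. Haemoglobin UMIs made up 2.08% and 7.23% against 0.213% and 2.59%. The part of free RNA in these differences was not tested.

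Other genes called lower in duct cells rested on few barcodes. Tmem212 and Fam183b, transcripts known from ciliated cells, are examples. Tmem212 had 35 UMIs in 4 barcodes and 23 UMIs in 1 barcode in the EYFP negative runs, and 1 UMI and 0 UMIs in the EYFP positive runs. The ratio of its summed CPM was 89.6 (95% counting interval 15.5 to 3598). The interval takes UMIs as independent although they lay in few barcodes, so it is too narrow for a comparison of cells. Fcgbp, a protein of mucus, was at 306 CPM in EYFP negative run 2, where 318 of its 320 UMIs came from 1 barcode, and at 7.16, 9.87 and 14.1 CPM elsewhere. C3, the central complement component, was at 186 and 42.1 CPM against 38.9 and 2.35 CPM, and 43 of its 52 UMIs in EYFP negative run 1 came from 1 barcode. Tm4sf1, a tetraspanin-like surface protein, was at 161 and 62.2 CPM without the label against 33.9 and 18.8 CPM with it. It was detected in 8, 21, 18 and 6 barcodes, its groups did not overlap, and its log2 fold change was -2.09 ± 0.29 SE (adjusted p = 0.00227).

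Digestive enzymes were higher in EYFP positive duct cells, mostly through run 2. The called stress genes Fosb, Atf3 and Hspa1b were higher in both runs. All 23 tested digestive enzyme genes had a positive log2 fold change and 7 were called, with a median of 1.40 against -0.02 over all genes. Zg16, a lectin of zymogen granules, was at 50.1 and 66.0 CPM in the EYFP negative runs and at 76.5 and 821 CPM in EYFP positive runs 1 and 2. Cel, the carboxyl ester lipase, was at 21.5 and 44.0 CPM against 28.4 and 426 CPM, so EYFP positive run 2 alone stood apart. Without EYFP positive run 2 and without the block, the log2 fold change of Cel was -0.45 and that of Zg16 0.25. Without the duct barcodes that held acinar genes, the changes of Cel and Zg16 were 0.76 and 0.61, each with an adjusted p of 0.998. Reg1, a secreted lectin of acinar cells, stayed called there at 1.95 (adjusted p = 0.0368), against 2.20 with all duct barcodes. Barcodes were left out in part for their enzyme UMIs, which include Cel, Zg16 and Reg1. Smaller changes of these genes were therefore partly set by the filter.

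Of the immediate-early genes, which cells induce within minutes of a stimulus, 17 of 17 tested were higher in EYFP positive duct sums and 2 were called. Fosb, an AP-1 subunit, was at 46.5 and 120 CPM against 80.2 and 369 CPM (1.32 ± 0.26 SE, adjusted p = 0.0337). Atf3, a stress-induced transcription factor, was at 10.7 and 49.7 CPM against 32.1 and 195 CPM (1.84 ± 0.29 SE, adjusted p = 0.00708). Both were higher in the EYFP positive library of each run, while the EYFP positive value of run 1 lay below the EYFP negative value of run 2. Without EYFP positive run 2 and without the block, EYFP positive run 1 stood against both EYFP negative runs. In that fit the changes of Fosb and Atf3 were -0.29 each. Without the barcodes that held acinar genes Atf3 stayed called (adjusted p = 0.00917) and Fosb did not (1.01, adjusted p = 0.4996). Hspa1b, an inducible heat shock protein, was at 10.7 and 67.9 CPM against 21.0 and 285 CPM and was called as well (1.86 ± 0.30 SE, adjusted p = 0.00711). Without EYFP positive run 2 and the block its direction turned to -1.29, although within run 1 it was higher in the EYFP positive library. Without the barcodes that held acinar genes, Hspa1b was at 1.303 (adjusted p = 0.257).

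Several counts for duct cells depended on the barcodes and the fit. Without the shallower copies of shared barcodes 55 genes were called (35 higher, 20 lower), and without both copies 3 were called, all lower (Tmem212, Fam183b and Cyp2s1), on 15 duct barcodes in EYFP positive run 2. In that library 26 of 41 duct barcodes were shared and 3 were the shallower copy, so mostly deeper copies were removed from it. Without both copies, Igkc, Ighm and Hbb-bs had log2 fold changes of -1.84, -1.94 and -1.26, each with an adjusted p of 0.9998. Tm4sf1 was at -1.94 and C3 at -2.35, and Cel, Zg16, Reg1, Atf3, Fosb and Hspa1b lay between 2.24 and 3.87, with the same adjusted p. Without the run block 4 genes were called, all lower, among them Igkc, Ighm and Tmem212, and DESeq2 with the block called 3. Igkc, Ighm and Tmem212 were also called whichever library was left out, in fits without the block that gave 42 to 88 calls.

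In endothelial cells 2 genes were higher and 20 lower in the EYFP positive fraction, of 9494 tested. Called genes made up 0.232% (0.0211% higher, 0.211% lower), and 502 genes had an unadjusted p under 0.05. The class held 156 and 830 barcodes in EYFP negative runs 1 and 2, against 569 and 34 in EYFP positive runs 1 and 2. Plvap, a protein of fenestrated endothelium, was at 5445 and 4792 CPM against 5423 and 5955 CPM (0.10 ± 0.18 SE, not called). No gene of VEGF, Notch and angiopoietin signalling was called, although 14 of the 18 tested were lower (median -0.26 against -0.02 over all genes). Of the 9 genes of endothelial lipid uptake tested, 5 were higher, 4 lower and none was called.

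Mitochondrially encoded transcripts, which specify subunits of the respiratory chain, were lower in EYFP positive endothelial cells. Of 13 tested, 8 were called lower and 1 higher, with a median log2 fold change of -0.82. mt-Co3 (ENSMUSG00000064358), a subunit of cytochrome c oxidase, was at 4988 and 5014 CPM in the EYFP negative and at 1635 and 1731 CPM in the EYFP positive runs. The values of each fraction lay close together and the groups were well apart (-1.62 ± 0.19 SE, adjusted p = 2.02e-13). mt-Nd3, a subunit of complex I, was at 510 and 486 CPM against 190 and 197 CPM (-1.41 ± 0.23 SE, adjusted p = 1.58e-06). mt-Nd4l, also of complex I, was the exception, at 126 and 238 CPM against 206 and 591 CPM (0.96 ± 0.23 SE, adjusted p = 0.0114). The nuclear genes of oxidative phosphorylation had 55 of 75 members higher (median 0.14) and none called.

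Measures of RNA quality differed between the fractions. Barcodes removed for mitochondrial UMIs numbered 286 of 810 and 304 of 2490 in the EYFP negative and 37 of 1002 and 6 of 220 in the EYFP positive libraries. With all deposited barcodes gated, 23 endothelial genes were called (2 higher, 21 lower), against 22 in the main fit. The log2 fold change of endothelial mt-Co3 lay between -1.79 and -1.43 over 20 alternatives. Why the removed numbers differed was not tested. Whole libraries held 10.7% and 8.08% mitochondrial UMIs without the label and 3.15% and 3.53% with it. Without the run block 5 endothelial genes were called, namely Igkc, Ighm, Jchain, Cd52 and Slc15a2, and mt-Co3 had an adjusted p of 0.284 at a log2 fold change of -1.63. DESeq2 with the block called 10, all lower.

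Transcripts of blood cells and 2 genes of the ribosomal RNA repeat made up most of the rest. Endothelial Igkc was at 583 and 450 CPM without the label and at 30.5 and 25.7 CPM with it (-4.25 ± 0.29 SE, adjusted p = 1.46e-44). Ighm was at 116 and 89.4 CPM against 8.19 and 8.57 CPM, and Jchain, the joining chain of secreted antibodies, at 41.2 and 37.1 CPM against 1.64 and 0 CPM. Of the immunoglobulin constant list, which also holds Jchain, all 5 tested genes were lower and 4 were called (Igkc, Ighm, Ighg1 and Jchain). Gm42418 and AY036118, gene models that overlap ribosomal RNA, had log2 fold changes of -1.18 and -1.40. Gm42418 was at 23455 and 21014 CPM against 10336 and 9897 CPM, without overlap between the groups.

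Leukocyte genes were also called in the endothelial class, in part through few barcodes. Cd74, the invariant chain of MHC class II, was at 512 CPM in EYFP negative run 2 and at 54.3, 51.8 and 51.4 CPM in the other 3 libraries. In EYFP negative run 2, 428 of its 1117 UMIs came from 1 barcode, and without that library and the block its log2 fold change was -0.05. Cd52, a surface glycoprotein of leukocytes, was at 18.7 and 68.8 CPM against 1.97 and 0 CPM. Slc15a2, a peptide transporter, had 11 and 46 UMIs against 2 and 0, and the ratio of its summed CPM was 33.3 (95% counting interval 8.80 to 281). That interval takes UMIs as independent, those of the same barcode included. Dock6, an exchange factor for small GTPases, was at 223 and 115 CPM against 109 and 68.5 CPM (-0.99 ± 0.25 SE, adjusted p = 0.0307). The gene called higher besides mt-Nd4l was Ppp1r15a, a stress-induced regulator of translation, at 120 and 89.8 CPM against 162 and 317 CPM (0.98 ± 0.24 SE, adjusted p = 0.0197). Without both copies of shared barcodes Ppp1r15a was at 0.60 (adjusted p = 0.962) and mt-Nd4l at 0.86 (adjusted p = 0.140), and Cd74 (adjusted p = 0.0905) and Dock6 (adjusted p = 0.0645) were not called either. In that setting 18 endothelial genes were called, mt-Co3 (-1.68) and Igkc (-4.26) among them. In fits without the block, 3 genes were called without EYFP negative run 2, 6 without EYFP positive run 1, and 54 and 52 without the other two. Igkc was called in each of them.

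Within the endothelial class, capillary cells made up 85.3% and 91.9% of the EYFP negative and 88.9% and 97.1% of the EYFP positive barcodes. Arterial cells made up 5.13% and 0.964% against 2.28% and 2.94%, 8, 8, 13 and 1 barcodes. The exact intervals of the arterial share overlapped between the fractions of each run (2.24% to 9.85% against 1.22% to 3.88% in run 1), and the 2 runs went in opposite directions.

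**Figure D2:**
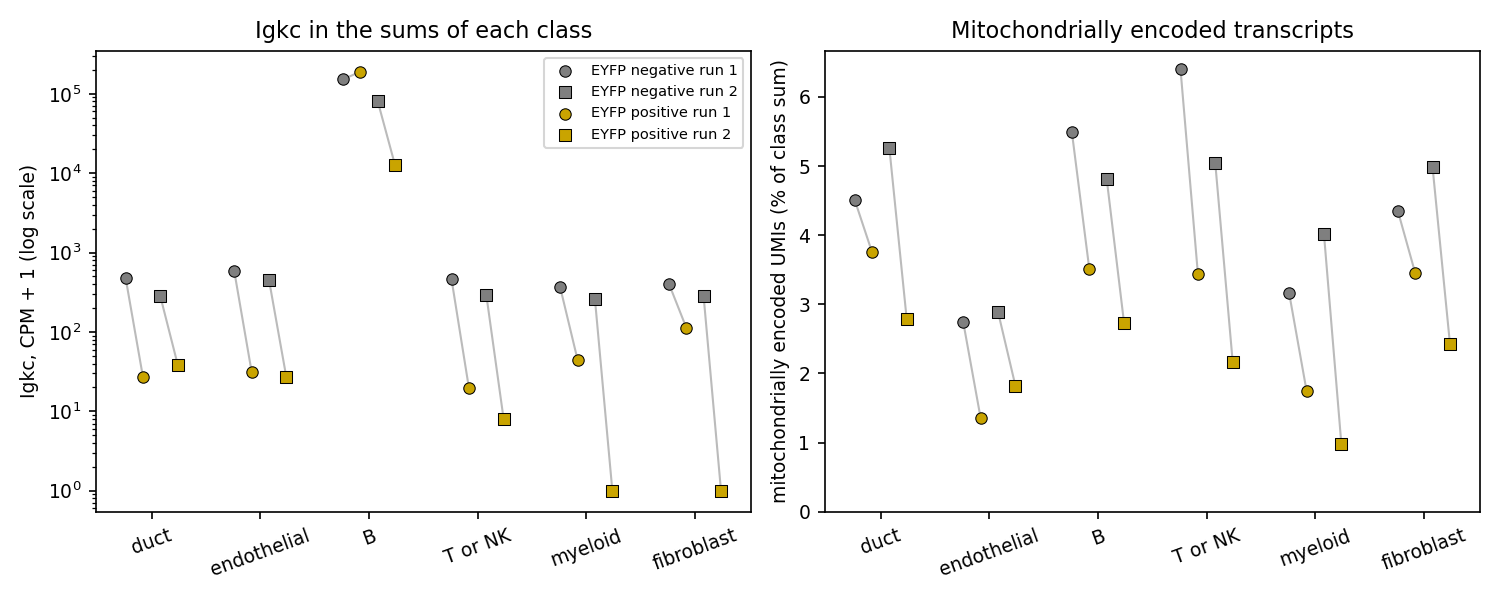
Left, Igkc in the summed UMIs of each class (y axis, CPM + 1, log scale); right, mitochondrially encoded UMIs as a share of the class sum (y axis, %). Points are libraries and grey lines join the fractions of a run. Outside B cells Igkc was at 256 to 583 CPM in the EYFP negative and at 0 to 113 CPM in the EYFP positive libraries, and the mitochondrial share was lower in the EYFP positive library in all 6 classes of both runs.

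In B cells 1 gene was higher and 3 lower in the EYFP positive fraction, of 5711 tested. Called genes made up 0.0700% (0.0175% higher, 0.0525% lower), and 319 genes had an unadjusted p under 0.05. B cell receptor signalling had 10 of 14 genes higher, none called (median 0.26 against -0.02). Cd79a, the signalling chain of that receptor, was at 2375 and 2089 CPM against 2246 and 3502 CPM (0.25 ± 0.28 SE). Egr1 (ENSMUSG00000038418), an immediate-early transcription factor, was at 65.9 and 33.8 CPM in the EYFP negative and at 225 and 222 CPM in the EYFP positive runs. Both EYFP positive values lay above both EYFP negative ones (2.14 ± 0.32 SE, adjusted p = 0.0452). It was detected in 18, 26, 10 and 12 barcodes.

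The 3 genes called lower in B cells came from single barcodes. Ighg3, the gamma-3 heavy chain, was at 10754 and 3680 CPM in the EYFP negative and at 10.01 and 7.16 CPM in the EYFP positive runs. In EYFP negative run 1, 10567 of its 10612 UMIs lay in 1 barcode, and in run 2, 6373 of 6416. Igha, the alpha heavy chain, was at 159 and 3340 CPM against 10.01 and 14.3 CPM, with 5797 of the 5822 UMIs of EYFP negative run 2 in 1 barcode. Slpi, a protease inhibitor, had 850 of its 861 UMIs of EYFP negative run 1 in 1 barcode. The single barcodes of Ighg3 and Igha were gated as plasma cells, the antibody-secreting form of B cells, and these 3 genes were called whichever library was left out. Ighm led the heavy chains in 97 of 110, 307 of 350, 28 of 33 and 32 of 40 B barcodes.

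Plasma cells and dividing cells in the EYFP positive B class were in part shallow copies of barcodes of the EYFP negative library. Plasma-gated barcodes numbered 11 of 110 and 24 of 350 EYFP negative B cells (10% and 6.86%) and 6 of 33 and 5 of 40 EYFP positive ones (18.2% and 12.5%). Without the shallower copies 2 of 28 and 1 of 35 EYFP positive barcodes were left (7.14% and 2.86%), below the EYFP negative shares of 9.17% and 6.38%. At 1000 UMIs per barcode, 2 of 106 and 7 of 276 EYFP negative and 1 of 26 and 1 of 30 EYFP positive B cells held at least 2 of 20 mitotic genes. Without the shallower copies the EYFP positive counts were 0 of 22 and 0 of 28, which allows shares of up to 13.6% and 10.7%.

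All 14 tested mitotic genes were lower in EYFP positive B cells (median log2 fold change -3.41), and none was called with all barcodes. Mki67, a protein of dividing cells, had 72 UMIs in 4 barcodes and 180 UMIs in 14 barcodes of the EYFP negative runs, and 2 UMIs in each EYFP positive run (-2.93 ± 0.52 SE, adjusted p = 0.130). Ube2c, a ubiquitin-conjugating enzyme of mitosis, had 46 and 262 UMIs against 2 and 1, and the ratio of its summed CPM was 12.8 (95% counting interval 4.33 to 62.3). That interval takes UMIs of the same barcode as independent and does not cover the spread between cells. Without the shallower copies 17 genes were called, 2 higher and 15 lower. Mki67, Top2a and Ube2c were then called lower, with adjusted p of 0.00863, 0.0460 and 0.00473. That filter took out 5 of 33 and 5 of 40 EYFP positive B barcodes but 1 of 110 and 5 of 350 EYFP negative ones. EYFP positive barcodes with mitotic genes were not found after it, so these calls may be set in part by the filter. Without the plasma-gated barcodes 14 were called, and Egr1 stayed at 2.13 (adjusted p = 0.00366). Without both copies of shared barcodes 1 gene was called (Ighg1), Egr1 was at 1.73 (adjusted p = 0.495), and Ighg3 and Slpi were at -2.35 and -1.83 (adjusted p = 0.9998 each). The count was 1 without the block (Ighg3) and 2 with DESeq2.

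In T or NK cells 2 genes were higher and 7 lower in the EYFP positive fraction, of 4512 tested. Called genes made up 0.199% (0.0443% higher, 0.155% lower), and 247 genes had an unadjusted p under 0.05. The genes called lower were led by those of natural killer cells, lymphocytes that kill without an antigen receptor. Tyrobp (ENSMUSG00000030579), an adaptor of their activating receptors, was at 486 and 128 CPM in EYFP negative runs 1 and 2 and at 0 CPM in both EYFP positive runs. Over the group its summed CPM was at least 37.0-fold lower, with a floor of 3 UMIs over both EYFP positive libraries. Its adjusted p was 0.00389. The Tyrobp UMIs of each EYFP negative library lay in 11 barcodes. The fold takes UMIs as independent and is therefore no bound over cells. Fcer1g, another such adaptor, was at 498 and 147 CPM against 14.9 and 0 CPM, and Ncr1, an activating receptor, at 116 and 64.6 CPM against 3.73 and 0 CPM. Xcl1, a chemokine of natural killer and CD8 T cells, was at 572 and 75.1 CPM against 26.1 and 13.8 CPM, and 166 of its 247 UMIs in EYFP negative run 1 came from 1 barcode. Nkg7 and Klrd1, 2 other markers that gate the class, were not called. In run 1 they were detected in 61.5% and 49.2% of EYFP negative and 35.3% and 20.6% of EYFP positive barcodes. In run 2 they went the other way, from 41.2% and 36.5% to 54.5% and 45.5%. Cd3e, a chain of the T cell receptor complex, was at 634 and 502 CPM against 961 and 434 CPM (0.15 ± 0.27 SE, not called).

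NK cells inside the class, gated by their own markers and the lack of CD3 genes, were few. NK-gated barcodes numbered 8 of 65 and 6 of 148 in the EYFP negative and 1 of 34 and 0 of 22 in the EYFP positive libraries, that is 12.3%, 4.05%, 2.94% and 0%. The exact binomial intervals overlapped (5.47% to 22.8% against 0.0744% to 15.3% in run 1), and 0 of 22 allows a share of up to 13.6%. After thinning to 1000 UMIs before gating, the shares were 13.2% and 6.14% against 0% and 0%. Of the 11 barcodes with Tyrobp UMIs in each EYFP negative library, 8 and 5 were NK-gated. Without the NK-gated barcodes Tyrobp and Fcer1g were still called lower (log2 fold changes -7.90 and -4.04, adjusted p = 0.0157 each), while Xcl1 was not (adjusted p = 0.122). Of 10 tested effector genes of T and NK cells, 9 were lower and 1, Xcl1, was called (median -1.57 against -0.01 over all genes).

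The T cell subtypes went opposite ways in the 2 runs. CD4 cells made up 29.2% of EYFP negative and 55.9% of EYFP positive barcodes in run 1, and 23.6% and 9.09% in run 2. CD8 cells made up 30.8% and 14.7% in run 1, and 35.1% and 54.5% in run 2. These shares rest on 34 and 22 EYFP positive barcodes, and 15 of the 22 in run 2 had a shallower copy in the EYFP negative library.

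**Figure D3:**
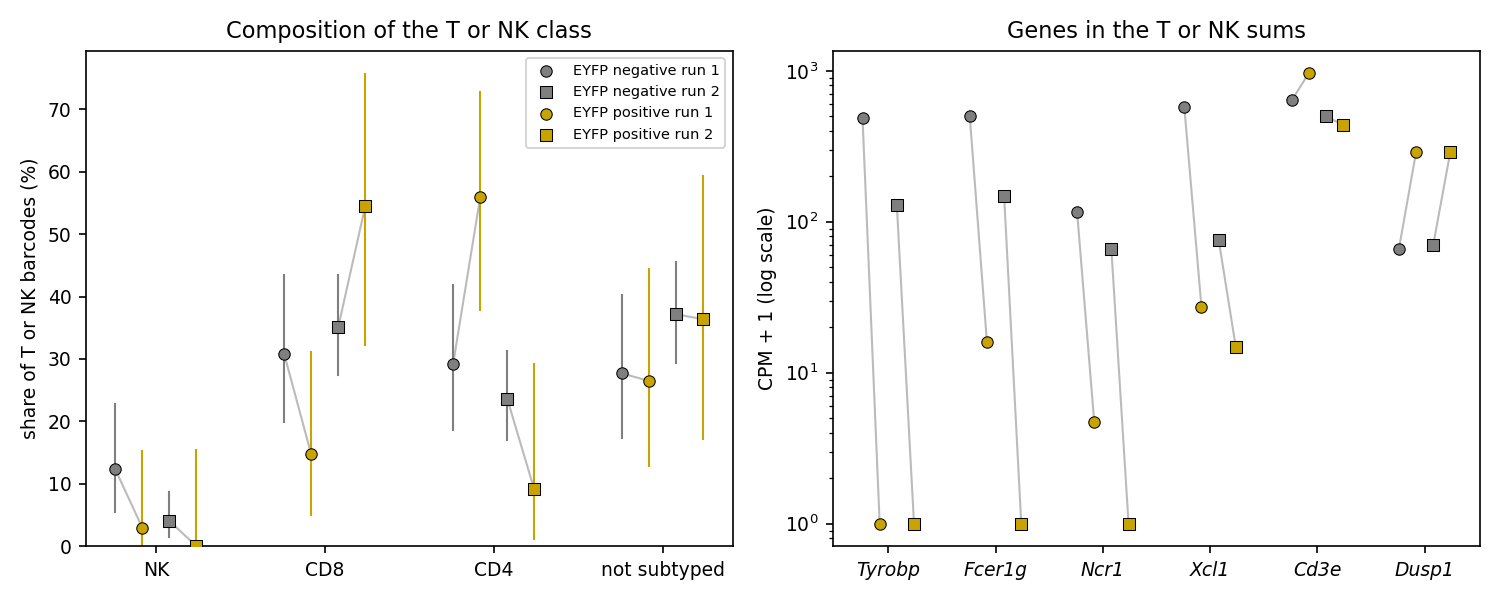
Left, share of T or NK barcodes in each subtype (y axis, %) with exact 95% binomial intervals; right, 6 genes in the T or NK sums (y axis, CPM + 1, log scale). Points are libraries and grey lines join the fractions of a run. Tyrobp was at 486 and 128 CPM in the EYFP negative and at 0 in both EYFP positive libraries, while the CD8 and CD4 shares crossed between runs.

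Of the 2 genes called higher in T or NK cells, Dusp1 was spread over many barcodes. Dusp1 (ENSMUSG00000024190), an immediate-early phosphatase that turns off MAP kinases, was at 64.8 and 69.1 CPM in the EYFP negative and at 287 and 290 CPM in the EYFP positive runs. It was detected in 18, 18, 16 and 13 barcodes, both EYFP positive values lay above both EYFP negative ones, and the log2 fold change was 2.03 ± 0.28 SE (adjusted p = 0.0381). Stfa3, a cysteine protease inhibitor, was at 0 and 1.50 CPM against 130 and 131 CPM, but its EYFP positive UMIs lay in 2 barcodes and 1 barcode.

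Of the called immediate-early genes, Egr1 was not matched by symbol and its promoter was not searched. The promoters of 3 others were searched for motifs, Dusp1, Atf3 and Fosb, and that of Dusp1 is shown because it held a match. The 250 bases before its start lie on the minus strand at chr17:26508473-26508722 (RefSeq, GRCm38.p6), 5′ to 3′, with capitals marking a cyclic AMP response element (TGACGTCA, searched on both strands), found 143 bases before the start.
Dusp1: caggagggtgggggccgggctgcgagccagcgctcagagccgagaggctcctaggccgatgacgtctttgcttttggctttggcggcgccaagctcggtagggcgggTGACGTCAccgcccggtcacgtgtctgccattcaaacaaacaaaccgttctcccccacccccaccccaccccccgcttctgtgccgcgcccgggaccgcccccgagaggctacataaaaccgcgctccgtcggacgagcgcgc
The element was found in the same 250-base window of 508 of 32851 mouse promoters (1.55%) and of 2 of the 17 immediate-early genes of the list that matched by symbol. A CArG box, the site known for serum response factor, was found in 482 promoters (1.47%) and in 1 of the 17. The windows of Atf3 and Fosb held 0 matches to either motif. A match describes the letters of the window, and binding was not measured.

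Igkc and mitochondrial transcripts were also lower in the T or NK class. Igkc was at 458 and 291 CPM against 18.6 and 6.89 CPM (-4.85 ± 0.40 SE, adjusted p = 0.00389). mt-Co3 was at 14012 and 9802 CPM against 5243 and 2682 CPM (-1.71 ± 0.23 SE, adjusted p = 0.0345). Without the run block 15 genes were called, among them the natural killer genes, Igkc, Dusp1 and Stfa3, while mt-Co3 was not (adjusted p = 0.676). With classes taken from Leiden clusters, edgeR's quasi-likelihood test called 0 genes, with 216 at an unadjusted p under 0.05, and DESeq2 on the gated class called 9. With 1 library left out in turn the counts were 20, 44, 38 and 136 without EYFP negative runs 1 and 2 and EYFP positive runs 1 and 2, and Igkc, Tyrobp, Fcer1g and Stfa3 were called in each.

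Myeloid and fibroblast cells were too few in the EYFP positive libraries for a test, with 6 and 4 and with 6 and 5 barcodes. Igkc and mt-Co3 were nonetheless lower in their EYFP positive sums. Igkc was at 363 and 256 CPM in EYFP negative and at 43.7 and 0 CPM in EYFP positive myeloid cells, and at 406 and 281 CPM against 113 and 0 CPM in fibroblasts. mt-Co3 was at 7084 and 7657 CPM against 2031 and 1488 CPM in myeloid cells, and at 8468 and 9363 CPM against 4509 and 3121 CPM in fibroblasts. All 4 myeloid barcodes of EYFP positive run 2 had a copy in the EYFP negative library, and 0 of the 4 were the shallower copy. Macrophages led the myeloid class, with 8 of 14 and 39 of 51 EYFP negative barcodes and 4 of 6 and 3 of 4 EYFP positive ones.

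Across the 4 tested classes 57 genes were called in at least 1 class and 6 in more than 1. Igkc was called lower in 3 of them (duct, endothelial and T or NK). Ighm, Jchain and Hbb-bt were called lower in duct and endothelial cells, and mt-Co3 and mt-Nd3 in endothelial and T or NK cells. These comparisons share their 4 libraries. In B cells, which make the transcript, Igkc was at 151845 and 81153 CPM in the EYFP negative and at 189880 and 12628 CPM in the EYFP positive runs and was not called (-1.26 ± 0.63 SE, adjusted p = 0.936). mt-Co3 had log2 fold changes of -1.50 in B and -1.11 in duct cells and was not called there (adjusted p = 0.130 and 0.530).

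In both runs and all 6 classes, mitochondrial UMIs took a smaller share of the EYFP positive sum. In duct cells it was 4.52% and 5.26% without the label against 3.76% and 2.78% with it. In endothelial cells it was 2.74% and 2.89% against 1.36% and 1.82%, in B cells 5.49% and 4.82% against 3.52% and 2.73%, and in T or NK cells 6.40% and 5.04% against 3.44% and 2.17%. mt-Nd4l went the other way in the 4 tested classes. Its log2 fold changes were 0.60 in duct, 0.96 in endothelial, 1.05 in B and 0.75 in T or NK cells, and it was called in endothelial cells only. No gene among the cytosolic ribosomal proteins was called in any class, and their medians lay between -0.06 and 0.20.

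Immediate-early genes took a larger share of the EYFP positive sums in all 6 classes in run 2, and the gap in run 1 was small. Their share of duct UMIs was 0.518% without the label and 1.39% with it in run 2, and 0.637% and 0.672% in run 1. In B cells the shares were 0.403% and 1.62% in run 2 and 0.385% and 0.417% in run 1. In T or NK cells they were 0.330% and 1.02% in run 2 and 0.449% and 0.502% in run 1. In endothelial cells they were 0.645% and 1.32% in run 2 and 1.22% and 1.13% in run 1. Fos, the AP-1 subunit, was at 1542, 891, 1726 and 1399 CPM in duct, endothelial, B and T or NK cells of EYFP positive run 2, above the other 3 libraries in each class, and was called in none. Of the genes tested, 17 of 17 were higher in duct, 18 of 19 in endothelial, 16 of 16 in B and 14 of 16 in T or NK cells. Of these, 2, 0, 1 and 1 were called, and the medians were 0.71, 0.32, 0.95 and 0.94 against -0.02 to -0.01 over all genes.

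**Figure D4:**
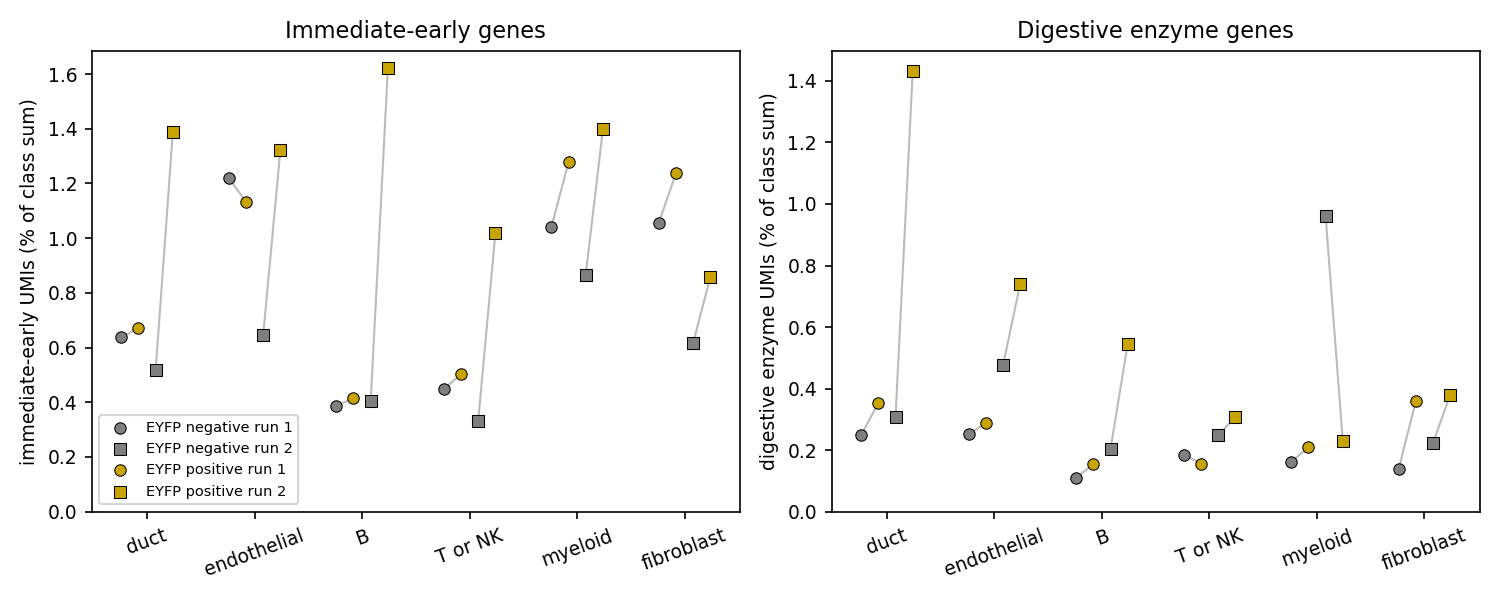
Immediate-early UMIs (left) and digestive enzyme UMIs (right) as a share of the class sum (y axis, %) for each class and library, with grey lines joining the fractions of a run. In run 2 the immediate-early share was higher in the EYFP positive library of every class, and the enzyme share of EYFP positive run 2 duct cells (1.43%) stood above the other 3 duct sums (0.249% to 0.353%).

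Genes of replication and repair were compared, since the label arises at replication. None of the mitotic, S phase or mismatch repair and DNA synthesis genes was called in any tested class with all barcodes. The mismatch repair and DNA synthesis list had 13 of 16 genes higher in duct cells (median 0.14), 9 of 18 in endothelial, 7 of 13 in B and 6 of 10 in T or NK cells. S phase genes had 8 of 8 lower in B cells (median -0.42) and 8 of 8 higher in T or NK cells (median 0.94). Over all genes the medians lay between -0.02 and -0.01. With the label, Mki67 UMIs of T or NK cells went from 3 to 26 in run 1 and from 29 to 0 in run 2. Whether the S phase genes also went opposite ways by run was not tested. Barcodes with at least 2 mitotic genes were 1 of 550 and 0 of 29 in EYFP positive endothelial cells, against 0 of 134 and 0 of 670, and 0 of 115 and 1 of 37 against 0 of 26 and 0 of 135 in duct cells. In T or NK cells they were 2 of 34 and 0 of 22 against 0 of 64 and 1 of 128. These counts did not show a difference detectable at this depth.

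Whether a label difference was larger in 1 class than in another was tested directly for the 6 pairs of tested classes. Between duct and endothelial cells 24 genes were called (0.236% of those tested), and 15 to 32 in the other pairs: 16 for duct and B (0.165%), 16 for duct and T or NK (0.200%), 15 for endothelial and B (0.163%), 16 for endothelial and T or NK (0.201%), and 32 for B and T or NK (0.591%). Gm42418 differed between duct and endothelial cells by 1.68 ± 0.21 SE on the log2 scale (adjusted p = 1.94e-12), being at 2340 and 7202 CPM against 5872 and 5639 CPM in duct cells. Tm4sf1 had a duct minus endothelial value of -2.15 ± 0.34 SE (adjusted p = 4.56e-07). The change of Dusp1 in endothelial cells minus that in T or NK cells was -1.70 ± 0.35 SE (adjusted p = 0.00112). No pair test called mt-Co3, so its difference was not shown to vary between classes.

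**Figure D5:**
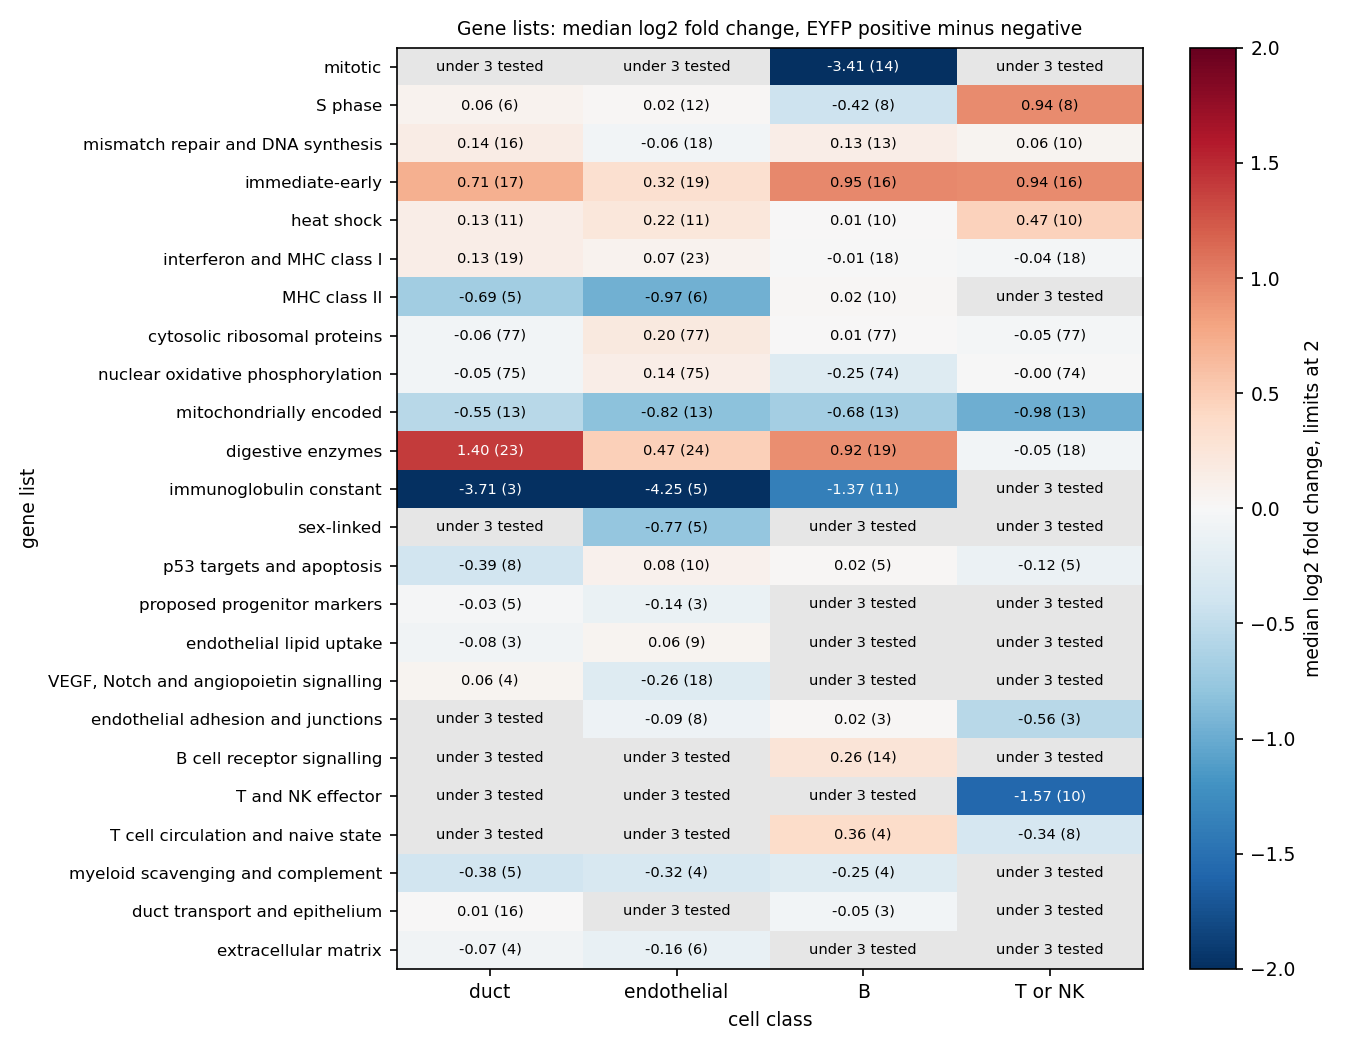
Median log2 fold change (colour and first number, EYFP positive minus negative) of the tested genes of each list (y axis) in the 4 tested classes (x axis), with the number of genes tested in brackets, colours limited at 2 in either direction, and grey where fewer than 3 were tested. Immunoglobulin constant genes (a list that also holds Jchain) and mitochondrially encoded genes were lower, and immediate-early genes higher, in the classes shown, from -0.55 in duct to -0.98 in T or NK cells for the mitochondrial list.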

How the data were processed

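Single-cell UMI counts of 31053 mouse genes were used as the authors deposited them for 4 homeostasis libraries; no other per-sample columns were used. Per the submitters' processing notes the tools include Cell Ranger 2.1.0 and the build named is GRCh38, a human build, while all gene identifiers are mouse and the matrix headers name software version 3.1.0. Their mouse build: not given in the sources used here. Strand handling is not given either, so overlapping and antisense genes, and near-identical families such as immunoglobulin, globin and enzyme genes, are uncertain.

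Gating took barcodes of 200 or more genes whose mitochondrial UMIs did not exceed 20%. Those with at least 30% enzyme UMIs were set aside as acinar and those with at least 20% haemoglobin UMIs as erythroid. Members and gene lists were chosen with earlier results of these data known. Doublets were marked with Scrublet in scanpy 1.11.5 (11 of 3225 barcodes) and kept in the main analysis. UMIs were summed per class and library and compared with edgeR 4.0.16 under R 4.3.3 (quasi-likelihood test, TMM, filterByExpr, run plus EYFP, Benjamini-Hochberg adjustment). A class needed 10 barcodes in each library. The run number in the labels was used as a block, and same-run libraries deviated together in all 4 tested classes. CPM values are scaled by the class sum, without TMM. Class pairs were tested by a class by EYFP interaction. Depth was 1044718 to 8008285 UMIs per library, and exact intervals are at the 95% level. Fits were tested on simulated data. Python 3.11.15, scipy 1.17.1 and DESeq2 1.42.0 were also used.

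Named genes were, for each class, up to 8 per direction of lowest p among those called at a mean log2 CPM of 5 or more and moving 1 way in both runs, members of the gene lists with low p, gate markers and a few control genes; Tmem212, Fam183b, Stfa3 and other genes resting on few barcodes were singled out after their values were seen. Alternatives covered the block, normalization, filters, gates, Leiden classes, doublets, thinning to 1000 UMIs and each library left out. Leaving out copies of shared barcodes, or NK, plasma and acinar-gene barcodes, was chosen after seeing the data. The run 3 libraries were not analysed here.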

Additional observations from a re-analysis of the deposited data

Results flagged for a closer look

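For 32 combinations of a pair of classes and a gene described with its values in at least 1 of them, the difference between EYFP positive and negative cells itself differed between the classes in edgeR's quasi-likelihood interaction test with Benjamini-Hochberg adjustment over all genes of the pair. Values are the first class minus the second on the log2 scale, and all pairs share the same 4 libraries. A fitted value for a gene at or near 0 in a group depends on the prior count and is no bound.

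Immunoglobulin transcripts differed most often. Igkc gave duct minus B -2.93, endothelial minus B -4.27 and B minus T or NK 4.74 (adjusted p = 3.61e-05, 2.85e-23 and 3.17e-15). Ighm gave duct minus B -3.62, duct minus T or NK -2.36, endothelial minus B -4.51 and endothelial minus T or NK -2.55. Jchain gave endothelial minus B -4.54. Beyond the 32, Jchain gave duct minus B -4.38 (adjusted p = 0.0222) and Cd74, described in endothelial cells, gave B minus T or NK 3.29 (adjusted p = 0.000226).

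The ribosomal RNA gene models differed between endothelial cells and others. AY036118 gave duct minus endothelial 2.74, endothelial minus B -1.98 and endothelial minus T or NK -1.88, and Gm42418 gave duct minus endothelial 1.68. Other genes called in endothelial cells were Arhgap45, with endothelial minus B -3.7 and endothelial minus T or NK -3.45, Cd52 with endothelial minus B -3.32 and Slc15a2 with duct minus endothelial 4.72.

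Of the enzymes and duct genes, Cel gave duct minus endothelial 1.96, Reg1 1.64 and Zg16 2.31. Against T or NK cells, Reg1 gave 2.4 and Zg16 2.35. Tm4sf1 gave duct minus endothelial -2.15.

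Of the immediate-early genes, Dusp1 gave duct minus T or NK -1.93 and endothelial minus T or NK -1.7. Fos gave -1.32 and -1.6 for the same pairs (adjusted p = 0.0330 and 0.00112), and Egr1 gave endothelial minus B -1.87 (adjusted p = 0.000100).

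Mitotic and natural killer genes made up the rest. Mki67 gave duct minus B 5.87 and B minus T or NK -4.63. Its duct UMIs, by run, were 1 without and 1 with the label in run 1, then 2 and 16 in run 2. Its rise in duct cells thus rested on EYFP positive run 2. In T or NK cells Mki67 went from 3 to 26 UMIs with the label in run 1 and from 29 to 0 in run 2, opposite ways. Top2a gave B minus T or NK -5.52, Tyrobp gave B minus T or NK 11.29 and Fcer1g gave endothelial minus T or NK 8.26. The cause of these differences was not tested.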

How the results depend on the processing

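Over the 58 named gene and class pairs, 890 of 1143 values under alternatives kept direction and side of the threshold, 204 lost a call, 39 gained one and 10 changed sign. Counts of called genes depended on the settings, and unless shown the cause was not tested. Without the replicate block 4 duct, 5 endothelial, 1 B and 15 T or NK genes were called, and the pair counts were 25 (duct and T or NK), 36 (endothelial and B), 48 (endothelial and T or NK) and 13 (B and T or NK); the block moved no other count by over 1.5 times. DESeq2 size factors gave 10 duct and 5 T or NK genes, and DESeq2 with the block 3 duct, 10 endothelial and 2 B genes. No low-count filter gave 95 duct, 67 B and 76 T or NK genes. Stricter barcode limits gave 16, 22 and 32 and 8 for duct and T or NK, all deposited barcodes 75 duct and 63 T or NK, and Scrublet removal 62 and 38. A looser gate gave 6 duct, 75 endothelial, 2 B and 3 T or NK genes and pair counts of 49, 40, 33, 46 and 41 for duct and endothelial, duct and B, duct and T or NK, endothelial and B, and endothelial and T or NK. A stricter gate gave 19 T or NK genes, 13 for duct and endothelial, 8 for duct and T or NK and a CD8 difference of -0.163 points. An acinar limit of 10% gave 14 duct genes. Leiden classes gave 0 T or NK genes in edgeR (216 at unadjusted p under 0.05), a duct share difference of 15.2 points, CD8 -1.53, CD4 -0.194 and Cd3e -0.00707. That duct share includes a cluster of 41 barcodes, of which 12 were gated as duct and 31 came from EYFP positive run 2. Library sizes without enzyme, haemoglobin and immunoglobulin genes gave 16 T or NK genes and 23 for endothelial and B, and thinned sums 29 T or NK genes.

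Without NK, plasma and acinar-gene barcodes 14 duct and 14 B genes were called, the pair counts were 10 (duct and endothelial), 7 (duct and T or NK) and 15 (B and T or NK), and the duct share difference was 5.72 points. Without shallower copies 55 duct and 17 B genes were called, and the B plasma and mitotic differences were -2.78 and -2.23 points. Without both copies 3 duct genes and 1 B gene were called, pair counts were 2 (duct and endothelial), 1 (duct and B) and 6 (endothelial and B), and the plasma, CD8 and B mitotic differences were -2.68, -4.58 and -1.07 points. The test across genes was not run in T or NK cells without both copies, since 7 barcodes were left in EYFP positive run 2; their share difference was -6.85 points and their mitotic difference 1.85. Thinning before gating gave a CD8 difference of -13.9 points. Mitotic differences at 1 or more genes were 1.12 points in endothelial and 4.17 in B cells. Unthinned they were 0.351 in endothelial cells and, at 1 or more genes, 4.28 in duct, 2.40 in endothelial and 7.998 in B cells.

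With 1 library left out, in fits without the block where a lone library is assumed to vary like the others, counts ranged from 42 to 88 (duct), 3 to 54 (endothelial), 24 to 79 (B) and 20 to 136 (T or NK). Pair counts ranged from 10 to 33 (duct and endothelial), 5 to 50 (duct and B), 3 to 58 (duct and T or NK), 5 to 40 (endothelial and B), 7 to 85 (endothelial and T or NK) and 4 to 108 (B and T or NK). Share differences ranged from 6.65 to 14.6 points (duct), -23.1 to 26.8 (endothelial), -18.5 to -1.08 (B), -7.54 to 0.152 (T or NK), -2.32 to -0.904 (myeloid) and -4.37 to -2.42 (fibroblast). Mitotic differences ranged from 0 to 2.70 (duct), 0 to 0.182 (endothelial), 1.05 to 1.70 (B) and -0.391 to 5.49 (T or NK). Sign changed for the endothelial share without EYFP negative run 1 (-3.86 points), the arterial share without the same library (1.65, range -2.52 to 1.65), the CD8 share without it (-0.509) and without EYFP positive run 2 (-18.2), and the CD4 share without EYFP positive run 1 (-17.3). Without EYFP positive run 2 sign also changed for Cel (-0.45 to 3.51 over the libraries left out), Reg1 (-0.23 to 3.06), Atf3 (-0.29 to 3.36), Fosb (-0.29 to 2.31), Hspa1b (-1.29 to 3.81) and B cell Igkc (-3.48 to 0.76). It changed for B cell Igkc without EYFP negative run 1 (0.43), for Krt19 without EYFP negative run 2 (-0.56 to 0.15) and for Cd3e without EYFP positive run 1 (-0.29 to 0.54). The small EYFP positive classes limited the depth.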
